A study of Homo sapiens with 24 samples.

Results

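The comparison described here sets HepaRG cells given FZD8_CRD alone against untreated HepaRG cells. It uses 6 of the 24 one-colour Agilent arrays of the series, chosen by their sample titles: 3 arrays of each of these groups, out of 8 conditions of 3 arrays. HepaRG is an established human cell line from a hepatocellular carcinoma, used as a liver progenitor that can give rise to hepatocyte-like and biliary-like cells. Cells of both groups were untransfected and received no Wnt3a, and the treated group received mouse FZD8_CRD at 300 ng/ml for 72 h in serum-free medium with 0.1% bovine serum albumin. The labels name no control protein for the untreated group and number the replicates only, while the methods of the study speak of independent culture experiments in triplicate. Of the other conditions, FZD8_CRD with Wnt3a (200 ng/ml) and Wnt3a alone serve below as a repeat on other arrays, and control siRNA (80 pmol) with and without Wnt3a and CTNNB1 siRNA without it give values for side by side reading. The cells of the siRNA conditions were also electroporated.

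Wnt ligands are secreted lipid-modified proteins that bind the cysteine-rich domain of Frizzled receptors and the co-receptors LRP5 and LRP6. In the canonical pathway this binding keeps β-catenin from being degraded, and β-catenin with LEF1/TCF factors then raises feedback genes such as AXIN2, RNF43 and NKD1. FZD8_CRD is the soluble cysteine-rich domain of the receptor Frizzled 8, which binds Wnt ligands outside the cell and keeps them from the receptors. In the liver, Wnt signaling is known for expanding progenitor cells and for setting the program of hepatocytes around the central vein. With no Wnt3a added, the comparison asks what the decoy does to cells that have only their own ligands.

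Both of the gene groups that changed most, the genes of differentiated hepatocytes and those of DNA replication and mitosis, are known to be read from promoters with well-described short elements, so 4 proximal promoters are shown. Each is the 120 bases before the transcription start in RefSeq (GRCh38.p14), written 5′ to 3′ on the gene's strand, with capitals marking GTTAAT (a run of letters known from liver promoters), CCAAT (the box bound by NF-Y) and TTTGAA (the cell cycle homology region, CHR), each searched on both strands.
ALB promoter, chr4:73404167-73404286, plus strand: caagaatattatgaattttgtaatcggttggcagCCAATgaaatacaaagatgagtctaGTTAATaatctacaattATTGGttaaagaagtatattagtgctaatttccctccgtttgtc
FABP1 promoter, chr2:88128063-88128182, minus strand: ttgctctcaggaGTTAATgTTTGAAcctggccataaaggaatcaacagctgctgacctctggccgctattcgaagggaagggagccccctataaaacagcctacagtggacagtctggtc
CDC20 promoter, chr1:43358861-43358980, plus strand: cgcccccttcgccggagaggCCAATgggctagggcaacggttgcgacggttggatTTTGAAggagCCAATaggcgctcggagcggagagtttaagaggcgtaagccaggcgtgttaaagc
PLK1 promoter, chr16:23678769-23678888, plus strand: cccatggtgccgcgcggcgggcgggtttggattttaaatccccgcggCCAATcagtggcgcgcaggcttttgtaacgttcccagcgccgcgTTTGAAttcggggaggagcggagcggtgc
No base of these 4 stretches lies in more than 1 of the motifs. Over 250 bases before the start, GTTAAT stood in 7.497% of the 27305 genes of the RefSeq promoter table, in 8 of the 22 called hepatocyte genes that the table holds (36.36%) and in 0 of its 23 called replication and mitosis genes. CCAAT stood in 37.00% of all genes, in 18 of the 23 replication and mitosis genes (78.26%) and in 9 of the 22 hepatocyte genes (40.91%). TTTGAA stood in 16.05% of all genes, in 6 of the 23 and in 4 of the 22. A match is a run of letters and not a measured binding site, and no match says only that these letters are not in the window.

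One of the 6 arrays goes against its label and is described before the results. Over the 21108 genes well above background on all arrays, FZD8_CRD replicates 1 and 2 differed by a root mean square of 0.30 on the log2 scale, and each differed from FZD8_CRD replicate 3 by 0.50 and 0.49. The array labelled FZD8_CRD replicate 3 lay at 0.36, 0.32 and 0.24 from the 3 arrays of FZD8_CRD with Wnt3a, and its nearest array was replicate 3 of that condition. The other replicate 3 arrays also had their nearest array in another condition, so this alone does not set FZD8_CRD replicate 3 apart. Of the 1110 genes that differed by more than 1 log2 unit between FZD8_CRD replicates 1 and 2 and the FZD8_CRD with Wnt3a arrays, 978 (88.1%) were nearer to the latter on this array. The same share was 6.94% of 389 genes for replicate 1 and 7.29% of 398 for replicate 2, each judged against the other 2 arrays of its group. For both, those other arrays included replicate 3, which draws the reference toward FZD8_CRD with Wnt3a. These 2 shares therefore cannot be set directly against the 88.1%. Why the array stands there was not tested. The counts over all genes and those of the gene lists are therefore given with and without it, and its value is given for many of the genes in which it lies apart. Untreated replicate 3 also stood nearer to another condition, at 0.34 and 0.36 from Wnt3a replicates 3 and 1. It lay at 0.38 and 0.48 from untreated replicates 2 and 1, and why was not tested.

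**Figure D1:**
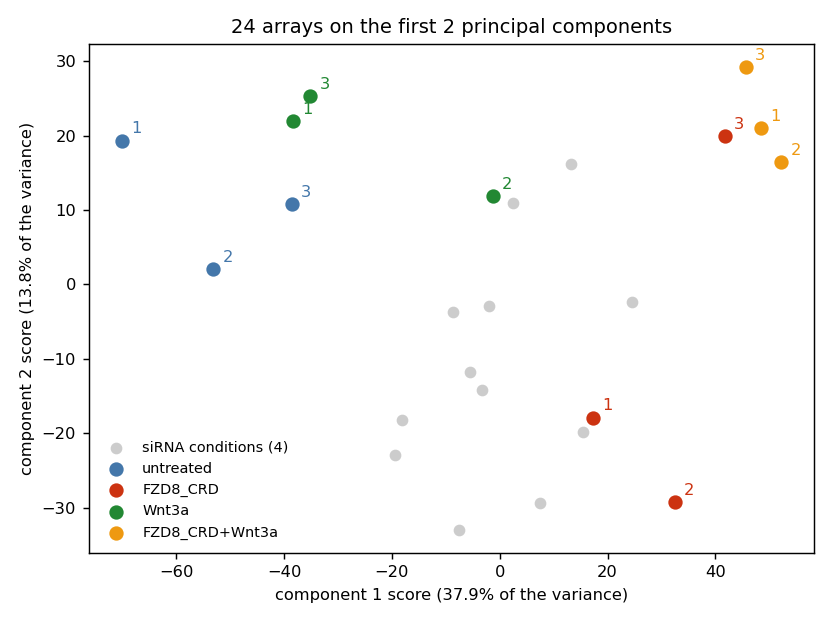
Scores of the 24 arrays on principal components 1 and 2 (37.9% and 13.8% of the variance), coloured by condition and numbered by replicate, with the arrays of the siRNA conditions in grey. FZD8_CRD replicates 1 and 2 have scores of -17.9 and -29.2 on component 2, while the array labelled FZD8_CRD replicate 3 has 20.0, within the range of 16.5 to 29.2 of the FZD8_CRD+Wnt3a arrays.

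Hepatocyte and biliary markers were both present in the untreated cells: ALB, TTR, APOA1, APOB, SERPINA1, HNF4A, KRT7, KRT19, SOX9 and CD44 were well above background on all 3 untreated arrays, and EPCAM on 1 of them. The 6 arrays had 59.5% to 62.7% of their spots well above background and 75th percentile signals of 737 to 912 intensity units. Replicate number is also the slide, and each condition kept its place on all 3 slides, so that the place on the slide and the treatment cannot be told apart. A value below is the log2 of the signal over the array's 75th percentile signal, with a floor at -6.13, and a call is a Benjamini-Hochberg adjusted p under 0.05 in limma over 24648 genes.

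FZD8_CRD alone was followed by changes in a large share of the transcriptome, with deeper falls than rises. Against untreated cells 4851 genes rose (19.7% of those tested) and 5471 fell (22.2%), 41.9% in all. Without FZD8_CRD replicate 3, 4975 rose (20.2%) and 5036 fell (20.4%), 40.6% in all, and 8893 genes were called the same way with and without that array, with 0 called in opposite directions. With slides as a paired block, 5780 rose (23.5%) and 7367 fell (29.9%). At an unadjusted p under 0.01 with a fold above 1.5 or below 0.7, which are the thresholds the study uses, 5516 genes (22.4%) passed, 1933 upward and 3583 downward, and 5443 without that array. Among the genes called by adjusted p on all arrays, 737 rose and 1562 fell by at least 2-fold, and 31 rose and 334 fell by at least 4-fold. The split by direction depends on the scaling: 47.0% of the calls were rises here, against 53.8% after quantile normalization and 7.49% (553 rises and 6828 falls, 2.24% and 27.7% of all genes) when arrays were scaled to 7 spike-in probes, which moved the median change of all genes from -0.09 to -0.46. Changes are therefore read relative to the array's 75th percentile, and each gene list is also given on the spike-in scale.

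The falls were led by genes of the differentiated hepatocyte, which make plasma proteins, handle lipids, sugars and alcohols, and clear drugs. Of 34 tested members of the hepatocyte list, 30 fell and 0 rose, with a median log2 change of -1.92, and the same counts of 30 and 0 held without FZD8_CRD replicate 3 (median -1.73), after quantile normalization and on the spike-in scale (median -2.29). Across all genes tested 22.2% fell and the median change was -0.09, and on the spike-in scale 27.7% and -0.46. Because bulk RNA was measured, fewer hepatocyte-like cells and less of these transcripts per cell cannot be told apart.

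Metabolic enzymes and carriers had the deepest falls of all genes with a symbol. FABP1, the liver fatty acid carrier, read 3.25, 1.07 and -0.33 in untreated replicates 1, 2 and 3, and -3.46, -5.11 and -4.98 in the FZD8_CRD replicates, with no overlap, although the untreated arrays themselves spanned more than 3 log2 units. The log2 change was -5.85 ± 0.75 (SE, n = 3 arrays per group, adjusted p = 5.2e-06). The sterol transporter subunit ABCG8 changed by -5.78, the vitamin E carrier afamin (AFM) by -5.57 and the drug-metabolising CYP2C8 by -5.47, and on the FZD8_CRD arrays these were well above background on 1, 2 and 1 of 3 arrays. Also among the 15 largest falls were GLYAT, ACSM2B, ADH4, ADH1A, GBA3, the steroid sulfotransferase SULT2A1, AGXT, KNG1 and ADH1C, between -5.39 and -4.65. A second probe of GLYAT gave -0.94 and no call. GLYAT was well above background on 1 of 3 FZD8_CRD arrays and ADH4 and ADH1A on 2, so that their values rest in part on signals at or near the floor. For KNG1, the precursor of bradykinin, FZD8_CRD replicates 1 and 2 read -3.58 and -4.95 and replicate 3 read -1.36, and the change was -4.65 with that array and -5.62 without it.

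Among the plasma proteins, log2 changes were smaller for several abundant products of the hepatocyte. ALB, which encodes serum albumin, read 9.76, 9.45 and 9.01 in untreated cells and 7.95, 7.30 and 7.54 with FZD8_CRD. The groups did not overlap, and the fall was 3.51-fold (log2 change -1.81 ± 0.31, adjusted p = 1.0e-04). SERPINA1 (alpha-1-antitrypsin) fell 2.82-fold, and FGB, the fibrinogen beta chain, fell by 2.33 on the log2 scale. For several secreted proteins, KNG1 above among them, the array labelled FZD8_CRD replicate 3 lay far from the others of its group. TTR, the thyroid hormone and retinol carrier, read 6.56, 4.91 and 3.65 in untreated cells, and 1.55, 1.21 and 5.11 with FZD8_CRD, so that the third array lay within the untreated range. APOA1 read 0.45, -0.01 and 3.24 and APOC3 read -0.81, -1.43 and 2.13 with FZD8_CRD, against untreated lows of 2.47 and 2.30. APOB lay the other way, with 3.1, 3.06 and 1.12 against an untreated low of 4.23. APOA2 read -5.48, -5.19 and -3.23, the last within its untreated range of -3.67 to -1.18. All of these were called with and without the array, TTR at -2.41 and -3.66, APOA1 at -2.76 and -3.76, APOC3 at -4.07 and -5.15, APOB at -1.98 and -1.33, and APOA2 at -2.15 and -2.85.

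Transcription factors of the hepatocyte fell as well. The nuclear receptor HNF4A changed by -1.70, the pioneer factor FOXA1 by -1.54 and CEBPA by -1.02, while FOXA2 (-0.12) was not called. NR1H4, the bile acid receptor FXR, read 2.26, 1.68 and 0.94 against -1.33, -2.78 and -1.83. No FZD8_CRD array reached an untreated one, and the change was -3.61 ± 0.48 (adjusted p = 7.1e-06). The xenobiotic receptor NR1I2 (PXR) fell by 1.91, and NR1I3 (CAR) had -0.75 and was not called.

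Drug-metabolising enzymes and transporters followed. CYP3A4, the major drug-oxidising cytochrome of the adult liver, changed by -2.43 and the bile acid uptake carrier SLC10A1, well above background on 1 of 3 FZD8_CRD arrays, by -4.10. CYP7A1, the rate-limiting enzyme of bile acid synthesis, was not well above background on any FZD8_CRD array and was at least 4.30-fold lower there than in untreated cells (adjusted p = 0.0038). GLUL (glutamine synthetase), which Wnt signaling is known to raise in hepatocytes around the central vein, fell by 0.82, and CPS1, the first enzyme of the urea cycle and known from the periportal side, by 1.22. The other members not called were TAT (-0.20) and CYP1A2 (0.20).

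The depth of these falls varied with the untreated cultures. Averaged over the 34 genes, each taken relative to its mean over the 24 arrays, untreated replicates 1, 2 and 3 stood at 2.20, 1.31 and 0.61, and the FZD8_CRD replicates at -0.69, -1.02 and -0.42. The groups were apart, with the untreated arrays the more spread. The 3 arrays of control siRNA without Wnt3a, which also had no FZD8_CRD, stood at -0.19, -0.24 and -0.20, below every untreated array and above every FZD8_CRD array. ALB had a mean of 9.41 ± 0.38 (SD, n = 3) in untreated cells, 7.76 ± 0.09 with control siRNA and 7.60 ± 0.33 with FZD8_CRD. The last 2 differed by less than the SD with FZD8_CRD and by more than that with control siRNA.

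Genes of DNA replication and mitosis moved the other way. Of 29 tested members 28 rose and 0 fell (median 1.47), against 19.7% rises over all genes. Without FZD8_CRD replicate 3, 27 rose and 0 fell (median 1.54). With spike-in scaling 22 rose and 0 fell (median 1.08), where 2.24% of all genes rose. RRM2, the small subunit of ribonucleotide reductase, read -0.14, -0.10 and 0.51 against 2.03, 2.22 and 1.83. Every FZD8_CRD array lay above every untreated array, and the rise was 3.83-fold (log2 change 1.94 ± 0.21, adjusted p = 9.0e-07). CDK1, the kinase that starts mitosis, read 1.15, 1.26 and 1.61 against 3.22, 3.40 and 2.88, again without overlap, and rose by 1.82 ± 0.16 (adjusted p = 2.0e-07). The mitotic kinase PLK1 rose by 1.84, the checkpoint gene BUB1B by 1.87, AURKB by 1.77, topoisomerase TOP2A by 1.76, cyclin CCNB1 by 1.67 and CDC20, which activates the anaphase-promoting complex, by 1.67.

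S-phase genes rose along with the mitotic ones. The licensing helicase subunit MCM2 rose by 1.47 and MCM7 by 0.88, the clamp PCNA by 1.1, the thymidylate synthase gene TYMS by 1.05 and the regulator E2F1 by 1.76. MKI67, the gene of the Ki-67 antigen, read 0.81, 0.94 and 1.35 against 2.20, 2.24 and 1.78, and its log2 change of 1.04 ± 0.29 was called (adjusted p = 0.0060). CCNB2 (-0.17) was the only tested member not called, and CCNE1, at 0.42, lost its call without FZD8_CRD replicate 3. On the mitotic genes named here that array read below replicates 1 and 2 of its group, for example 1.32 against 2.00 and 2.07 for PLK1 and 2.40 against 3.22 and 3.26 for TOP2A, and still above the untreated arrays. The means of the 29 genes relative to the 24 arrays were -1.14, -0.85 and -0.59 in untreated cells and 0.53, 0.63 and 0.39 with FZD8_CRD, with the control siRNA arrays between them at 0.15, 0.09 and 0.18.

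**Figure D2:**
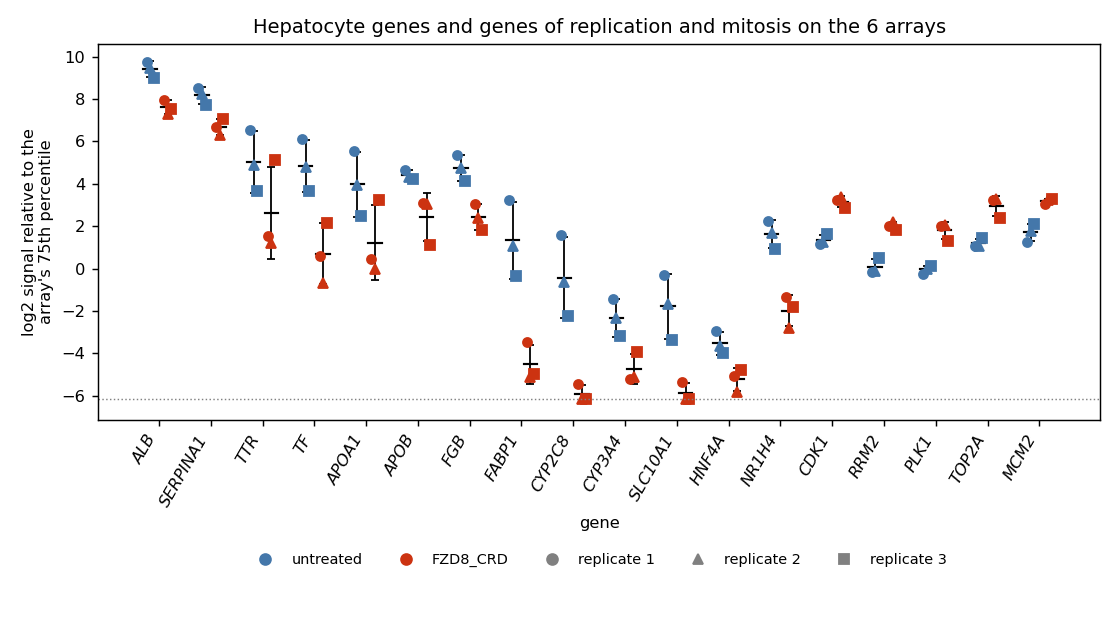
Log2 signal relative to the array's 75th percentile of 13 hepatocyte genes (left, ALB to NR1H4) and 5 replication and mitosis genes (right, CDK1 to MCM2) on each of the 6 arrays, with group mean (short line) and SD (bar), and the floor dotted. The hepatocyte genes read lower with FZD8_CRD except in replicate 3 of TTR and APOA1, which lies inside the untreated range, and the 5 genes on the right read higher on every FZD8_CRD array.

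The Wnt pathway itself showed a mixed picture, with feedback genes on both sides. Of 17 Wnt feedback and target genes 13 were tested, of which 4 rose and 4 fell (median 0.00), and without FZD8_CRD replicate 3 there were 4 rises and 3 falls. On the spike-in scale 0 rose and 4 fell. These shares are to be read against the 19.7% of all genes that rose and the 22.2% that fell. For the spike-in scale the shares over all genes were 2.24% and 27.7%. RNF43, a ubiquitin ligase that removes Frizzled receptors and is itself a β-catenin target, read 1.09, 0.92 and 0.84 in untreated cells and -0.36, -0.44 and -0.24 with FZD8_CRD. The groups were far apart for their spread, and the fall was 2.46-fold (log2 change -1.30 ± 0.10, adjusted p = 9.2e-08). AXIN2, the scaffold of the β-catenin destruction complex and a general feedback target, read 0.48, 0.46 and 0.22 against -0.13, -0.04 and -0.47. These values did not overlap either, with a smaller fall of 0.60 ± 0.10 on the log2 scale (adjusted p = 1.2e-04), and a second probe of AXIN2 fell by 1.03. APCDD1, a Wnt inhibitor at the cell surface, fell by 1.53, with -5.69 on FZD8_CRD replicate 3 and -3.74 and -3.79 on the others.

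Other targets did not follow RNF43 and AXIN2. LEF1, a partner of β-catenin that is also its target, read -0.28, -0.07 and 0.41 against 0.92, 0.93 and 1.19, and rose by 1.00 ± 0.15 (adjusted p = 3.2e-05). MYC rose by 0.58 and held its call without FZD8_CRD replicate 3. CCND1 (0.34) and SP5 (0.19) were called rises that turned to -0.05 and -0.20 on the spike-in scale. DKK1, a secreted inhibitor of LRP5 and LRP6, was called at -0.54 with all arrays and not without FZD8_CRD replicate 3 (-0.27). ZNRF3 (0.12), TCF7 (0.19), NKD2 (-0.25) and KREMEN1 (-0.19) were not called, although KREMEN1 was with slides as a paired block (adjusted p = 0.012), NKD1 was at the floor in both groups (0.00), and LGR5, NOTUM, TNFRSF19 and DKK4 were not well above background on any of the 6 arrays.

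Wnt ligands are what the decoy could bind. Of 21 genes for Wnt ligands and their secretion, 11 were tested, with 4 rises and 2 falls, where 19.7% of all genes rose and 22.2% fell. Without FZD8_CRD replicate 3 the counts were 4 and 1. They were 1 and 2 on the spike-in scale, where 2.24% of all genes rose and 27.7% fell. WNT11, a ligand known for β-catenin-independent signaling, read -0.13, 0.32 and -0.20 against -1.36, -1.63 and -2.32, without overlap, and fell by 1.77 ± 0.24 (adjusted p = 9.6e-06). WNT5A, another such ligand, rose by 0.96, WNT10B by 0.95, WNT7B by 1.47 and PORCN, the acyltransferase that makes Wnt proteins active, by 0.65. Other kept probes of WNT7B gave as little as 0.30. WNT6 was called at -0.68 only with FZD8_CRD replicate 3. The endogenous WNT3A transcript was not called (-0.33), and was called with slides as a paired block (adjusted p = 0.019).

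Receptors were called in both directions, over a background of 19.7% rises and 22.2% falls. That background was 2.24% and 27.7% on the spike-in scale. Of 16 tested Frizzled receptors and co-receptors 5 rose and 6 fell, the same numbers without FZD8_CRD replicate 3, and 0 rose and 7 fell on the spike-in scale. The receptor gene FZD8, whose mouse counterpart supplied the decoy, read -0.89, -0.99 and -1.27 against -2.22, -2.49 and -3.04. No FZD8_CRD array overlapped the untreated ones, and the fall was 2.89-fold (log2 change -1.53 ± 0.28, adjusted p = 2.0e-04). FZD4 read 2.21, 2.12 and 1.80 against 0.83, 0.62 and 0.75 and fell by 1.31 ± 0.18 (adjusted p = 8.3e-06), and FZD5, LRP5, LRP6 and the R-spondin receptor LGR4 fell by 0.35 to 0.49. FZD7 rose by 0.69 and FZD2 by 0.48, as did FZD6 (0.47) and the Wnt5a receptors ROR1 (0.49) and RYK (0.41), and each of these 5 rises lost its call on the spike-in scale.

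With all arrays, in the core of the pathway and among its secreted inhibitors, the shares of falls were near the 22.2% over all genes, and fewer genes rose than the 19.7% over all. Of 13 members of the β-catenin complex and its transcription factors, 1 rose (DVL2, 0.29) and 3 fell (APC, -0.42, TCF7L1, -0.45, and CTNNBIP1, -0.37). Without FZD8_CRD replicate 3 the counts were 3 and 1, and on the spike-in scale they were 0 and 3, with DVL2 at -0.10. Over all genes 2.24% rose and 27.7% fell on that scale. The other probes of APC (0.06) and CTNNBIP1 (0.14) gave no fall. CTNNB1, which encodes β-catenin, had a log2 change of 0.20 and was not called, while a second probe was called as a rise (0.32). Of 7 tested secreted inhibitors, SFRP2 (-0.82) and SOST (-0.79) fell, the latter only with FZD8_CRD replicate 3 and well above background on 2 of 3 FZD8_CRD arrays, and SFRP1 (0.20) was not called. Without that array 1 of the 7 fell, and on the spike-in scale 2 fell and 0 rose.

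Fibrillar collagens fell or were not called. Of 9 tested genes 6 fell and 0 rose (median -1.32), the same counts without FZD8_CRD replicate 3 (median -1.15), with 7 falls on the spike-in scale. Over all genes 22.2% fell, 20.4% without that array and 27.7% on the spike-in scale. The mean of the 9 relative to the 24 arrays was 0.69, 0.40 and 0.18 in untreated cells and -0.81, -1.0 and -0.48 with FZD8_CRD, and the control siRNA arrays at -0.41, -0.21 and -0.60 overlapped the latter. COL3A1 read -1.78, -1.73 and -1.99 against -4.58, -4.76 and -4.61. Replicates differed by under 0.3 within each group, and the fall was 7.04-fold (log2 change -2.81 ± 0.23, adjusted p = 1.1e-07). COL5A3 fell by 2.56, COL27A1 by 1.59, COL24A1 by 1.32 and COL5A2 by 0.73. COL1A2 also fell (log2 change -1.45), with 1 of 3 FZD8_CRD arrays well above background. COL1A1 read 0.47, 0.12 and -0.03 against -0.40, -0.26 and 1.37, so that the third FZD8_CRD array lay above all untreated ones and the others below them, and it was not called with that array (0.05) or without it (-0.52). COL5A1 was not called (0.16).

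Of 20 tested matrix and myofibroblast genes 5 rose and 4 fell, near the 19.7% and 22.2% over all genes. There were 6 rises and 7 falls without FZD8_CRD replicate 3, where 20.2% and 20.4% of all genes were called, and 2 and 6 on the spike-in scale, where 2.24% and 27.7% were. The largest rise of any gene with a symbol was that of CNN1, the smooth muscle actin-binding protein calponin 1. It read -1.77, -1.92 and -2.32 in untreated cells and 1.96, 2.11 and 2.10 with FZD8_CRD. The groups were 4 log2 units apart with little spread, and the rise was 16.6-fold (log2 change 4.06 ± 0.49, adjusted p = 3.0e-06). THBS1 (thrombospondin 1) rose by 1.60 and the proteoglycan VCAN by 0.93, while the proteoglycan DCN fell by 1.49, TPM2 by 1.24 and fibronectin (FN1) by 0.98. ACTA2, the smooth muscle actin gene used as the marker of myofibroblasts, was called at 0.30 and turned to -0.09 on the spike-in scale.

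Several matrix genes were decided by the array labelled FZD8_CRD replicate 3. TNC (tenascin C) read 0.05, 0.25 and 0.17 in untreated cells and -0.55, -0.48 and 2.48 with FZD8_CRD, and was not called with the array (0.33) and called as a fall without it (-0.67). HAPLN1, a link protein of hyaluronan matrix, read -5.07, -4.41 and -4.09 against -2.54, -2.33 and -5.47, and was called only without the array (2.08, against 1.08 with it). TGFBI (-0.58) and FAP (-1.23) were called as falls and LUM (0.33) and IGFBP5 (1.12) as rises only without it, and IGFL1 read -3.17, -3.71 and 0.27 on the FZD8_CRD arrays.

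**Figure D3:**
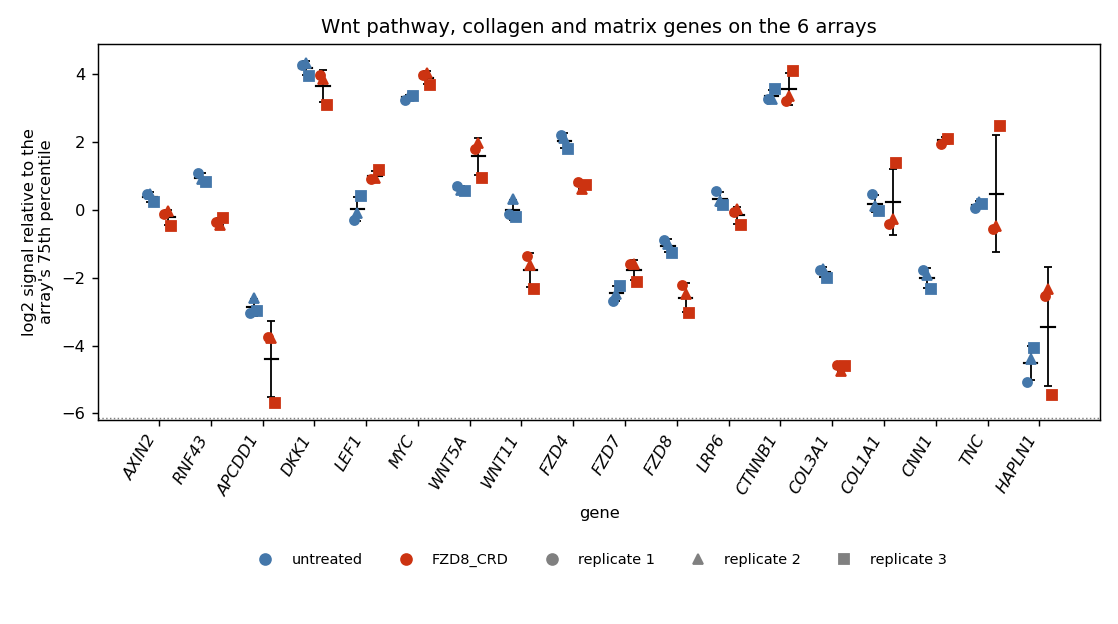
Log2 signal relative to the array's 75th percentile of 18 genes of the Wnt pathway, collagens and matrix on each of the 6 arrays, with group mean (short line) and SD (bar). RNF43, FZD8 and COL3A1 read lower and LEF1 and CNN1 higher on every FZD8_CRD array, while for COL1A1, TNC and HAPLN1 replicate 3 (square) lies on the other side of the untreated values from replicates 1 and 2.

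With all arrays, lists of signals that cross with Wnt had shares of calls near the 19.7% rises and 22.2% falls over all genes, apart from the YAP/TAZ targets, of which only 6 were tested. The shares over all genes on the spike-in scale were 2.24% and 27.7%. Among 18 TGF-β and BMP genes 5 rose and 4 fell (5 and 3 without FZD8_CRD replicate 3, 2 and 5 on the spike-in scale). ID3, a BMP target that blocks differentiation factors, read 2.62, 2.63 and 2.45 against 4.10, 4.18 and 3.65 and rose by 1.41 ± 0.12 (adjusted p = 1.7e-07). ID1 rose by 0.95 and ID2 fell by 1.07. Of 6 YAP/TAZ targets AXL (0.91), ANKRD1 (0.90), CCN1 (0.80) and AJUBA (0.31) rose and 0 fell, as without FZD8_CRD replicate 3 (4 and 0), and 0 were called on the spike-in scale, where AJUBA turned to -0.08. In the list of Hedgehog, Notch and IGF genes 6 of 23 rose and 4 fell, the same numbers without FZD8_CRD replicate 3, with 1 rise and 4 falls on the spike-in scale. The Notch target HEYL rose by 2.23, with -3.11 and -2.48 on FZD8_CRD replicates 1 and 2 and -5.03 on replicate 3, and HEY1 by 1.05. IGF1, a hepatocyte-secreted growth factor, fell by 2.08, and was well above background on 1 of 3 FZD8_CRD arrays.

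Of the epithelial-mesenchymal and biliary lists, several counts lay near the shares over all genes, which were 19.7% rises and 22.2% falls, and 20.2% and 20.4% without FZD8_CRD replicate 3. Of 10 genes of epithelial-mesenchymal transition VIM (1.25), ZEB2 (1.23) and ZEB1 (0.60) rose, and CDH1, the epithelial cadherin, was called as a fall (-1.08) only with FZD8_CRD replicate 3, so that 3 rose and 0 fell without it. Other probes of ZEB2 and ZEB1 gave as little as 0.47 and 0.16. On the spike-in scale 1 of the list rose and 1 fell, where 2.24% of all genes rose and 27.7% fell. Among 13 biliary and progenitor genes 5 rose and 3 fell, and 3 and 1 without FZD8_CRD replicate 3. The fetal albumin-like gene AFP read 0.48, -0.05 and -0.32 against 0.85, 0.89 and 1.41 and rose by 1.01 ± 0.15 (adjusted p = 3.2e-05), CD44 rose by 0.54 and SPP1 (osteopontin) fell by 1.37. A second probe of CD44 gave 0.04. The biliary keratin KRT19 was called at 0.36, lost its call without FZD8_CRD replicate 3 and turned to -0.03 on the spike-in scale. On that scale 0 of the list rose and 3 fell, and with slides as a paired block, where 23.5% of all genes rose and 29.9% fell, 5 rose and 5 fell.

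Falls outnumbered rises in lipid synthesis, inflammation and hypoxia, where 22.2% of all genes fell, 20.4% without FZD8_CRD replicate 3, 29.9% with slides as a paired block and 27.7% on the spike-in scale. Of 25 genes of cholesterol and fatty acid synthesis 17 fell and 1 rose (median -0.45), 11 and 1 without FZD8_CRD replicate 3, 17 and 2 with slides as a paired block, and 17 and 0 on the spike-in scale, led by HMGCS1 (-1.28) and INSIG1 (-1.26). DHCR7, the last enzyme of cholesterol synthesis, fell by 0.92. Of 19 inflammatory and acute-phase genes 10 fell and 0 rose, 11 and 1 without FZD8_CRD replicate 3, 13 and 1 with the paired block, and 14 and 0 on the spike-in scale. Haptoglobin (HP) fell by 1.96, ORM1 by 1.88, SAA1 by 1.64 and the chemokine CXCL1 by 1.39. The mean of the 19 genes relative to the 24 arrays was 1.08, 0.62 and 0.24 in untreated cells and -0.08, -0.26 and -0.21 with FZD8_CRD, and the control siRNA arrays, without the decoy, stood at -0.13, -0.06 and -0.09, also below every untreated array. Of 13 hypoxia and glycolysis genes 7 fell and 0 rose with all arrays, without FZD8_CRD replicate 3 and on the spike-in scale. CA9, a carbonic anhydrase known as a hypoxia marker, read 4.07, 3.70 and 2.76 against 1.2, 1.12 and 1.88, without overlap (log2 change -2.11 ± 0.29, adjusted p = 1.2e-05), and VEGFA fell by 1.79 and NDRG1 by 1.44. Of 25 interferon-stimulated genes 3 rose (among them HERC5, 1.07, and OAS3, 0.84) and 11 fell (among them IRF7, -1.1, XAF1, -1.09, and MX1, -0.79), with 3 and 10 without FZD8_CRD replicate 3 and 0 and 10 on the spike-in scale.

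Among stress genes, counts of calls are to be read against the 19.7% of all genes that rose and the 22.2% that fell, with the unfolded protein list a little above both and the ribosomal and immediate-early lists near or below them. SLC7A11, the cystine carrier, read 1.02, 1.18 and 1.84 against 2.98, 3.14 and 3.24 and rose by 1.77 ± 0.20 (adjusted p = 1.2e-06), within a list of unfolded protein and amino acid stress in which 5 of 18 rose and 6 fell, and 6 and 3 without FZD8_CRD replicate 3. ATF3 of that list had 3 probes that rose and 1 that fell, and its direction is uncertain. Of 17 heat shock and oxidative stress genes 9 rose, led by HSPH1 (0.91), and 1 fell (MT1F, -0.97), the same numbers without that array. Their mean was -0.31, -0.18 and -0.12 in untreated cells, 0.06, 0.06 and 0.03 with FZD8_CRD, and 0.10, 0.06 and 0.14 with control siRNA alone, as high as with the decoy or higher. Of 10 p53 targets 7 rose and 0 fell, among them GDF15 (1.02) and the cell cycle inhibitor CDKN1A (0.69), with 6 and 0 without that array and 8 and 1 with slides as a paired block. The means of the p53 targets overlapped between control siRNA (0.01, 0.05 and -0.10) and FZD8_CRD (0.08, 0.12 and 0.01), and both lay above the untreated arrays (-0.37, -0.25 and -0.35). On the spike-in scale the rises numbered 1, 0 and 0 and the falls 5, 1 and 0. There 2.24% of all genes rose and 27.7% fell. Of 22 ribosomal protein genes 4 rose and 0 fell (median 0.06), with 5 and 0 without that array, 7 and 2 with the paired block (23.5% and 29.9% over all genes), and 0 and 0 on the spike-in scale. Of 14 immediate-early genes 2 rose and 3 fell, with 2 and 1 without that array and 0 and 3 on the spike-in scale.

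Markers of other cell types were checked as lists, each with few tested members, against 19.7% rises and 22.2% falls over all genes (23.5% and 29.9% with slides as a paired block). The shares over all genes were 2.24% and 27.7% on the spike-in scale. Of 12 immune markers 8 were tested, and CD68, ITGAM and CD79A fell and 0 rose, with 4 falls without FZD8_CRD replicate 3. CD68 read 1.92, 1.68 and 1.16 in untreated cells and -0.11, -0.14 and 1.18 with FZD8_CRD, so that the third array lay within the untreated range. The mean of these 8 relative to the 24 arrays was 0.62, 0.32 and 0.13 in untreated cells and 0.21, -0.51 and -0.08 with FZD8_CRD, which overlap. The leukocyte antigen PTPRC was not called (-0.57) except with slides as a paired block (adjusted p = 0.0051), and MS4A1 stayed below that limit on every array. On the spike-in scale 6 of the 8 fell. Of 8 endothelial markers 5 were tested, and KDR, the VEGF receptor, fell by 1.51. Their mean was 0.01, 0.12 and 0.12 in untreated cells and -0.23, -0.29 and -0.14 with FZD8_CRD, without overlap, and 1 fell without FZD8_CRD replicate 3, 2 with slides as a paired block and 2 on the spike-in scale, while TIE1, ERG and CLDN5 were below the limit on all 6 arrays. Of 7 stellate cell markers 6 were tested: PDGFRA, not well above background on any FZD8_CRD array, was at least 3.22-fold lower there (adjusted p = 6.0e-06), and NGFR, not so on any untreated array, was at least 1.82-fold higher (adjusted p = 0.0016). The mean of the 6 was 0.21, 0.27 and -0.07 against -0.02, -0.15 and -0.20, and 1 rose and 1 fell also without FZD8_CRD replicate 3, while 0 rose and 1 fell on the spike-in scale. Of 6 erythroid markers 4 were tested and 0 were called, with means of 0.40, -0.20 and 0.13 against 0.11, -0.59 and 0.12. None was called without FZD8_CRD replicate 3 or on the spike-in scale, and 1 fell with the paired block. The part of other cells in the results was not tested.

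Apart from CNN1, the 15 largest rises among genes with a symbol held 5 pregnancy-specific glycoprotein genes, PSG8 (2.39), PSG6 (2.39), PSG3 (2.35), PSG2 (2.35) and PSG5 (2.11), a family of near-identical genes whose probes may read each other, so the rise of single members is uncertain. PSG8 read -2.84, -2.72 and -2.62 in untreated cells and -0.10, 0.09 and -0.99 with FZD8_CRD, without overlap. LOXL1, a lysyl oxidase of elastic fibres, was not well above background on any untreated array and was at least 5.54-fold higher with FZD8_CRD (adjusted p = 4.7e-05). The cytokine IL11 read -4.01, -4.40 and -4.52 against -2.57, -2.55 and -0.86 and rose by 2.31, or by 1.75 without the last array. SERPINB2 (2.36), KRT80 (2.38), HEYL, PAK6 (2.20), CPA4 (2.18) and LINC00707 (2.13, with another probe at 0.11) made up the list with OR2T8, which was at least 6.01-fold higher by 1 probe and 0.29 on the log2 scale by another. Of these CPA4, HEYL, PAK6, PSG3 and SERPINB2 were well above background on 1 of 3 untreated arrays, so that the sizes of their rises rest in part on signals near the floor.

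**Figure D4:**
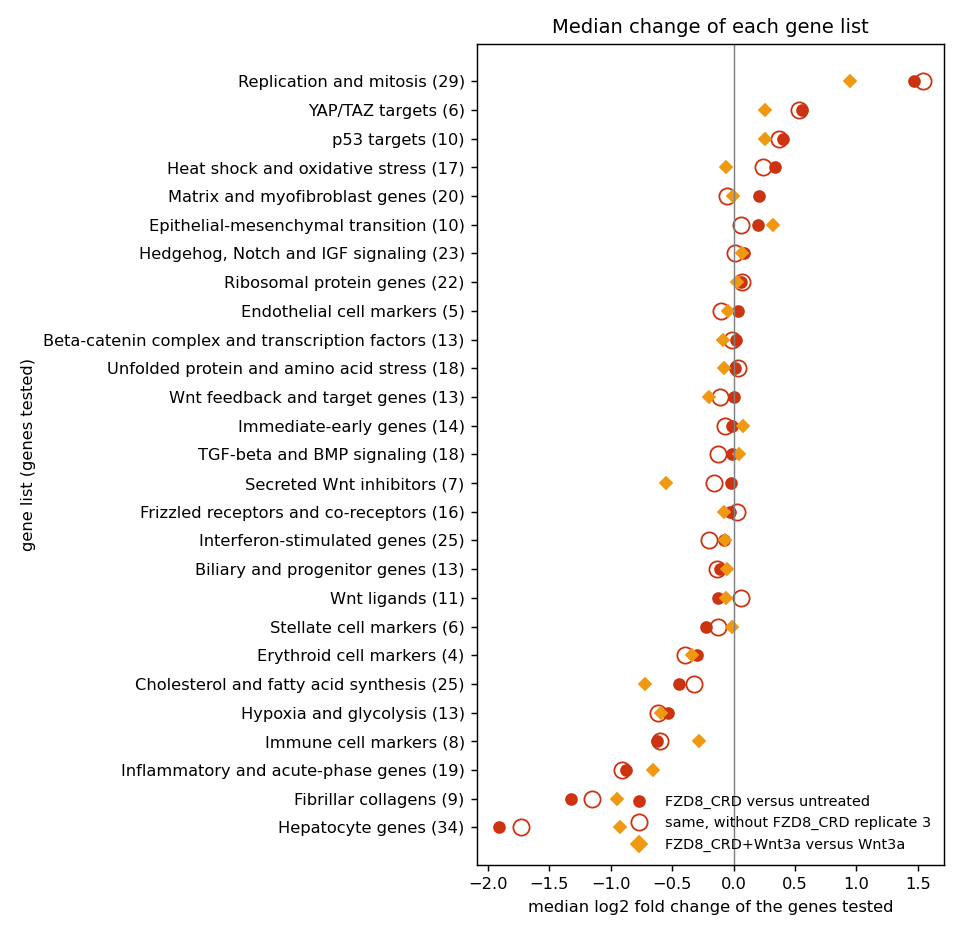
Median log2 fold change of the tested genes of 27 lists (number tested in brackets) for FZD8_CRD against untreated with all arrays (filled circle), without FZD8_CRD replicate 3 (open circle), and for FZD8_CRD+Wnt3a against Wnt3a (diamond). Hepatocyte genes and fibrillar collagens lie farthest to the left (-1.92 and -1.32) and replication and mitosis farthest to the right (1.47), and the same 3 lists are outermost in the comparison with Wnt3a (-0.92, -0.95 and 0.95).

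The decoy was also given with Wnt3a, and 6 further arrays (FZD8_CRD with Wnt3a, and Wnt3a alone) show its effect in that setting, although they come from the same 3 slides. There 4493 genes rose (18.2%) and 4669 fell (18.9%), 37.2% in all. On the spike-in scale 2288 genes were called in place of 9162, and without the replicate 1 arrays 4107. Of the 10322 genes called without Wnt3a, 6846 were called the same way with it and 20 the opposite way, which is 66.3% of the calls without and 74.7% of those with Wnt3a. Without FZD8_CRD replicate 3, which lies with the FZD8_CRD with Wnt3a arrays, 6093 were shared (60.9% and 66.5%) and 134 opposite. Across 24648 genes, which are not independent replicates, the log2 changes correlated with r = 0.80, and with r = 0.70 without that array. Replication and mitosis had 27 rises and 0 falls in the second setting (median 0.95), and hepatocyte genes 19 falls and 0 rises (median -0.92). Wnt3a replicate 2 lay apart from its group on both lists. Relative to the 24 arrays, Wnt3a replicates 1, 2 and 3 stood at 0.88, -0.14 and 1.01 for the hepatocyte genes. For replication and mitosis they stood at -0.77, -0.14 and -0.84. FABP1 changed there by -5.95, RNF43 by -1.23, COL3A1 by -3.13, CNN1 by 3.07 and CDK1 by 1.18, while TTR (1.41) and APOA1 (0.55) were not called.

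**Figure D5:**
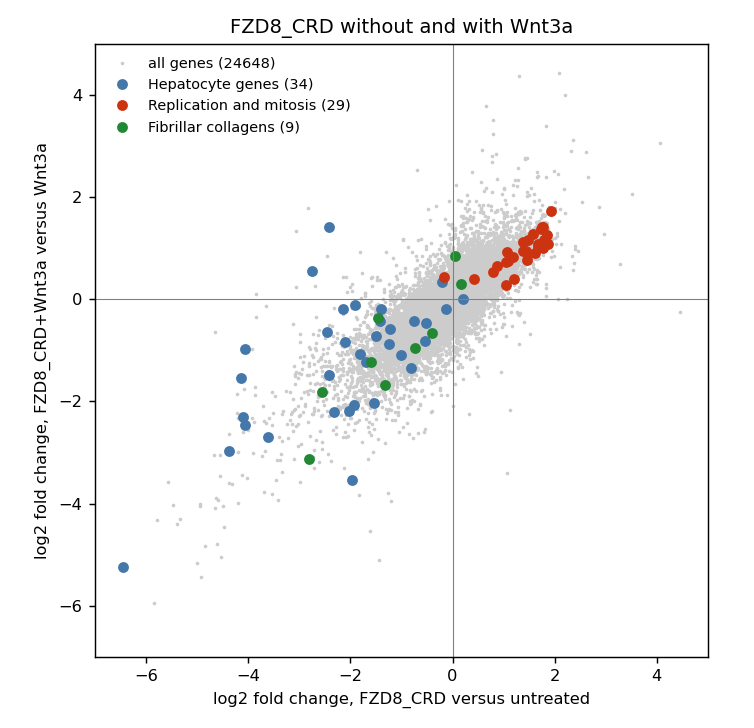
Log2 fold change of 24648 genes for FZD8_CRD against untreated (horizontal) and for FZD8_CRD+Wnt3a against Wnt3a (vertical), with 3 gene lists coloured. Most replication and mitosis genes lie in the upper right, and most hepatocyte genes and collagens in the lower left, with TTR and APOA1 among the hepatocyte genes above 0 on the vertical axis.

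Whether the effect of the decoy differed between the settings was tested as an interaction. Of all genes, 18 were called (0.073%), 5 upward and 13 downward, with 3128 at an unadjusted p under 0.05, and without FZD8_CRD replicate 3 there were 1911 (7.75%), which include all 18. The count rests on single arrays: it was 4, 2 and 593 without untreated replicates 1, 2 and 3, and 3 and 0 without FZD8_CRD replicates 1 and 2. Of the listed genes HAPLN1, LUM and NOG were called, each with a lower change in the presence of Wnt3a. LEF1 rose by 1.00 without Wnt3a and had 0.05 with it, and the difference was not called (adjusted p = 0.081).

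Side by side with the other perturbations, some Wnt targets moved alike and others did not. Knockdown by CTNNB1 siRNA lowered CTNNB1 itself by 3.03 on the log2 scale against control siRNA, and it also lowered RNF43 (-0.66), TCF7 (-1.15), LEF1 (-0.72) and ZNRF3 (-0.50), of which FZD8_CRD lowered RNF43 only and raised LEF1. AXIN2, which FZD8_CRD lowered, was not called with the siRNA (0.11, adjusted p = 0.62). DKK1 was lowered by both (-0.60 with the siRNA), though for FZD8_CRD only with replicate 3. CCND1 was raised by both (0.89 with the siRNA), though its change with FZD8_CRD turned to -0.05 on the spike-in scale. Wnt3a after control siRNA raised LEF1 by 0.61 (adjusted p = 0.041), as its decoy did, and RNF43 by 1.02, AXIN2 by 0.60, COL3A1 by 1.05 and COL1A1 by 2.19. RNF43 had means of 0.95 ± 0.13 (SD, n = 3) in untreated cells, 1.68 ± 0.07 with Wnt3a, -0.35 ± 0.10 with FZD8_CRD and 0.46 ± 0.07 with both. COL3A1 had -1.83 ± 0.14, -0.90 ± 0.34, -4.65 ± 0.10 and -4.03 ± 0.28 in the same order, and -3.95 ± 0.50 with control siRNA alone. The median change of the hepatocyte genes was -0.28 for Wnt3a after control siRNA and 0.34 for CTNNB1 siRNA, and that of replication and mitosis -0.05 and -0.16, against -1.92 and 1.47 for FZD8_CRD. Across genes, the changes with FZD8_CRD correlated with those of Wnt3a after control siRNA at r = 0.30 and with those of CTNNB1 siRNA at r = -0.24, as a description of arrays that share slides.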

How the data were processed

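Total RNA of 24 samples (3 in each of 8 conditions) was labelled with Cy3 and hybridised to one-colour Agilent arrays of 62976 spots. Per the file headers, the authors read the arrays with Feature Extraction 10.7.1.1, which gave background-subtracted intensity values, while the submitters' processing notes name version 10.7.3.1. The deposited series matrix holds log2 values that the authors had normalized and centred on each row's median, on a scale the sources do not state in full. All of its 25443 rows matched a probe, and its array differences correlated with those of the scanner values at 0.921 to 0.995.

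Intensities were divided by each array's 75th percentile, floored and taken to log2, without control spots and outlier-flagged spots. A probe stayed in if every array of some condition showed it well above background (31067 probes), and the brightest one stood for its gene, with symbols from RefSeq transcripts (24648 genes tested, 15997 with a symbol). At this filter 41 values were missing. limma 3.58.1 (R 4.3.3) fitted 1 mean per condition over the 24 arrays with trended moderation and Benjamini-Hochberg adjustment, so that 3 arrays per group limit the precision. The interaction was the effect of FZD8_CRD with Wnt3a minus that without.

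The genes named were the 15 largest rises and falls with a symbol, called members of the gene lists and 20 genes always given. Members outside this rule, such as TNC and HAPLN1, were named after their values were seen. The members, gene lists and tests were chosen with earlier results of these data known. On simulated data with 200 of 24648 genes changed, the fit recovered 71% of changes of 1 and 94% of changes of 2 log2 units for FZD8_CRD against untreated, and 5.17% of its 174 calls were false. The simulated noise was independent between genes and arrays, with no slide effect and no array out of place. In the data 41.9% of genes were called, so the simulated share of false calls does not carry over to them. Replicate numbers coincide with slides, and same-numbered untreated and FZD8_CRD arrays deviated together from their group means (r = 0.37, 0.38 and 0.28). A shared slide and a shared culture cannot be told apart in this. The lowest such r among same-numbered arrays of the untransfected conditions was -0.06. The main fit did not pair the arrays, and the replicate block did. The highest correlation between replicates of a condition was 0.9961. Over all arrays the closest pair, replicate 3 of FZD8_CRD and of FZD8_CRD with Wnt3a, still differed by a root mean square of 0.24. No file therefore repeated another. Alternatives covered scaling, background correction, the filter and floor, probes per gene, the arrays fitted, moderation, array weights, the replicate block and leaving out arrays. Some genes of the lists count in the totals and are not reported here by name.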

Additional observations from a re-analysis of the deposited data

Results flagged for a closer look

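For 3 of the listed genes the effect of FZD8_CRD differed between cells with and without Wnt3a by the interaction test over all genes in limma. HAPLN1 had a log2 change of 1.08 without Wnt3a and -3.41 with it, a difference of -4.48 (adjusted p = 0.026). LUM, a collagen-binding proteoglycan, had -0.01 and -1.43, a difference of -1.42 (adjusted p = 0.047). NOG, a BMP antagonist, had a difference of -1.45 (adjusted p = 0.040). For HAPLN1, LUM and NOG the array labelled FZD8_CRD replicate 3 read -5.47, 1.89 and -3.29, in each case below the other FZD8_CRD arrays. All 18 genes called for the interaction were also called without that array, and HAPLN1's change without Wnt3a was then 2.08. However, 0 genes were called without FZD8_CRD replicate 2, without the replicate 1 arrays, without the replicate 2 arrays, and with only the arrays compared. The calls of HAPLN1, LUM and NOG were therefore lost in these settings.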

How the results depend on the processing

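The count of genes called for FZD8_CRD against untreated (10322) was 6387 when only the arrays compared were fitted, and lay between 6215 and 11229 when replicates were left out. It was within 1.5 times under every other alternative run, including the replicate block, in which slides paired the samples (13147), and the block ended no call of a listed gene and added 25 over the lists. For FZD8_CRD with Wnt3a against Wnt3a the count of 9162 was 2288 on the spike-in scale, 15073 with array weights and between 4107 and 10126 with replicates left out. The interaction count of 18 was 11 with normexp, 5 in the deposited matrix, 40 without a filter, 3 with a filter on all 24 arrays, 6 with a floor of 1 intensity unit, 0 with only the arrays compared, 149 with the replicate block, 45 without moderation, 5127 with array weights and between 0 and 2989 with arrays left out. The cause of these shifts was not tested.

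Of the single genes, SP5 (-0.20), CCND1 (-0.052), DVL2 (-0.10), ACTA2 (-0.091), AJUBA (-0.080) and KRT19 (-0.028) changed sign on the spike-in scale. Leaving out replicates moved TNC between -0.67 and 0.85, LUM between -0.39 and 0.41 and TGFBI between -0.58 and 0.52, and TGFBI was -0.50 with array weights. Over all named genes and settings, 4081 values kept their side of the threshold (genes without a call could change sign among them, as COL1A1 did between -0.62 and 0.51), 228 lost and 33 gained a call, and 13 changed sign where either value was a call. Probes not well above background carry only a bound.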
